A study of Mus musculus with 48 samples.

Results

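Membrane-type matrix metalloproteinases (MT-MMPs) and the tissue inhibitors of metalloproteinases (TIMPs) were followed in mouse cerebral cortex through 9 genes. These were 5 MT-MMP genes, *Mmp14*, *Mmp15*, *Mmp16*, *Mmp17* and *Mmp24*, and the 4 TIMP genes *Timp1*, *Timp2*, *Timp3* and *Timp4*. The genes were taken by symbol, and each was found once in both deposited tables, as 9 of 18943 genes for the *APOE*-TR mice and 9 of 27086 genes for the B6 mice. The set was chosen by a measured value, the change of *Mmp24* with nPM over all mice, so the nPM values and calls of the members are a description from which nothing is read. Tests are given for the allele, for sex and for differences between responses. These contrasts were not the value that chose the set, though earlier results of these data were known. The response differences draw on the same nPM and control values, so those of *Mmp24* are not independent of the choice. RNA came from total cortex of 48 mice in 12 groups of 4, formed by sex, genotype and exposure. B6 mice (C57BL/6J, wild type, labelled 4 months old) inhaled filtered air or nPM, re-aerosolized nano-sized particulate matter from urban air, in sessions of 5 hr, on 3 days of each week, over 8 weeks. *APOE*-TR mice (labelled 6 months old) followed the same weekly schedule for 15 weeks. In every *APOE*-TR mouse, controls included, the human *APOE*3 or *APOE*4 allele replaces mouse *Apoe* in the whole body, so the *APOE*-TR groups hold no mouse with mouse *Apoe*. The B6 and the *APOE*-TR experiments were run and tabulated apart, and their levels were not tested against each other. Of the 9 members, 8 had reads in every mouse and entered the fit of all mice with 11078 genes, and *Timp1* did not.

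MT-MMPs are zinc proteases held at the cell surface, by a transmembrane segment in *Mmp14*, *Mmp15*, *Mmp16* and *Mmp24* and by a lipid (GPI) anchor in *Mmp17*. They are made as inactive precursors that furin-type convertases cut, and they cleave matrix proteins, adhesion molecules and receptors next to the membrane. *Mmp14* activates the secreted protease *Mmp2* together with *Timp2*, and *Mmp24* is known mainly from neurons, where it cleaves N-cadherin. TIMPs are secreted proteins that block the catalytic site of matrix metalloproteinases. *Timp3* stays bound to the extracellular matrix and also inhibits ADAM sheddases, and *Timp4* is known for its expression in brain and heart. In bulk cortex, fewer cells of a type and less RNA per cell cannot be told apart.

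The genes lie on 9 chromosomes of GRCm38 (mm10). *Mmp14* is at chr14:54431612-54445364, *Mmp15* at chr8:95352268-95375080, *Mmp16* at chr4:17852893-18119145, *Mmp17* at chr5:129584169-129611099 and *Mmp24* at chr2:155775342-155818366, all on the plus strand. *Timp1* is at chrX:20870166-20874735 (plus), *Timp2* at chr11:118301069-118355740 (minus), *Timp3* at chr10:86300372-86349506 (plus) and *Timp4* at chr6:115241892-115252205 (minus). Apart from *Timp2*, the TIMP genes lie inside synapsin genes on the opposite strand, *Timp1* in *Syn1*, *Timp3* in *Syn3* and *Timp4* in *Syn2*. Annotated exons of *Timp4* and *Syn2* share 90 bases and those of the other pairs share 0. Exons of *Mmp24* share 637 bases with *BC029722* on the opposite strand. The libraries were stranded, but the strand setting of the counting is not given in the sources used here, so reads of these overlapping pairs may not be told apart.

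The 250 bases before the start of *Mmp24* and of *Timp4* are shown because these were the MT-MMP with the highest and the TIMP with the lowest nPM change over all mice. Sequences are from RefSeq (GRCm38.p6), which held 7 of the 9 promoters and none for *Mmp16* and *Mmp17*. They are written 5′ to 3′ on the gene's strand, *Mmp24* at chr2:155775092-155775341 (plus) and *Timp4* at chr6:115252206-115252455 (minus), with matches to GGGCGG (a GC box) or TGACNNNGC (the antioxidant response element core), on either strand, in capitals.
Mmp24: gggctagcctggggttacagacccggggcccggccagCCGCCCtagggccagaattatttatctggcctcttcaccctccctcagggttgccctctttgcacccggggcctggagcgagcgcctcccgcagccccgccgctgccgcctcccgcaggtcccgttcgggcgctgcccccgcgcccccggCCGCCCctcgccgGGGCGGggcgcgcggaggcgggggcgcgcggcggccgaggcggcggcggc
Timp4: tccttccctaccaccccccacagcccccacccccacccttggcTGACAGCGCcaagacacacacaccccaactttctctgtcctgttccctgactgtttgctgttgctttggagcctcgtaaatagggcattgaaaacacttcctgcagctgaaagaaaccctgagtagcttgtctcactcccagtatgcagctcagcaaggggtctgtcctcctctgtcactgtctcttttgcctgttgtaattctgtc

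The *Mmp24* window was 79.2% G or C with 33 CG pairs, and that of *Timp4* was 53.6% G or C with 2 CG pairs, where the median over 32851 mouse promoters of the same length was 52.4%. The *Mmp24* window held 3 GC boxes and that of *Timp4* none, and 6 of the 7 members with a sequence held at least 1, against 32.7% of all promoters. TGACNNNGC was found in *Mmp15*, *Timp2* and *Timp4*, 3 of 7 members, against 10.2% of all promoters. A match describes the letters of the window and not the binding of a factor.

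Reads recovered from the deposited values were 17.8 to 31.2 M (mega) per *APOE*-TR mouse, with 17.8 to 22.2 M in females and 22.4 to 31.2 M in males, and 2.04 to 24.3 M per B6 mouse. Cortex markers were present in every mouse, with summed levels over 7 markers each of 2128 to 7167 CPM for neurons and 1162 to 4232 CPM for astrocytes. The 5 choroid plexus markers summed to between 1.73 and 1473 CPM, and 1 of them had no reads in the B6 male control mice and in the B6 female nPM mice. Controls 61 and 6 of the *APOE*3 females stood apart. Their deposited CPM summed to 877652 and 790423, against 668394 to 736701 in the other 30 *APOE*-TR mice. The slope of log2 level on log2 transcript length, taken in each mouse relative to the other mice of its table, was −0.547 and −0.398 in these animals and −0.219 to 0.154 in the other 30. In B6 mice, against their own table, the slopes were −0.234 (male control 0) to 0.0819, and −0.137 in male nPM mouse 10. A negative slope means that long transcripts read lower in that mouse. Several results that rest on controls 61 and 6 are given with and without them.

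*Timp2* was the most abundant member and *Timp1* the least. Compared per length, in CPM per kb of the longest transcript, *Timp2* averaged 52.3 in the *APOE*-TR mice, *Mmp17* 26.2, *Timp3* 17.7 and *Mmp24* 7.69. The levels per kb of the others were 3.17 for *Timp4*, 3.08 for *Mmp16*, 2.81 for *Mmp14*, 1.94 for *Mmp15* and 0.201 for *Timp1*. Among neighbours in this order, *Timp2* exceeded *Mmp17* in 32 of 32 mice, *Mmp17* exceeded *Timp3* in 29 and *Timp3* exceeded *Mmp24* in 32. *Timp4*, *Mmp16* and *Mmp14* could not be ordered, since *Timp4* exceeded *Mmp16* in 14 of 32 mice and *Mmp16* exceeded *Mmp14* in 18. *Mmp14* exceeded *Mmp15* in 28 of 32 mice.

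The B6 mice had the same first 5 genes in the same order, with levels per kb of 58.6 for *Timp2*, 20.9 for *Mmp17*, 18.7 for *Timp3*, 5.18 for *Mmp24* and 3.21 for *Timp4*. The inhibitor *Timp2* and the lipid-anchored *Mmp17* thus led in both tables. *Mmp17* exceeded *Timp3* in 10 of 16 B6 mice, so these neighbours were not separated there. *Mmp15* (2.10), *Mmp16* (1.72) and *Mmp14* (1.32) overlapped. *Timp1*, an inhibitor that inflammation and injury are known to induce, was near the limit of detection. It had 1 to 9 reads in each *APOE*-TR mouse (0.0667 to 0.305 CPM), and of the 16 B6 mice 11 had an estimated 0 reads and the highest had 20 (0.887 CPM). A count of 0 allows up to 3 reads, and this limit covers counting error only.

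**Figure D1:**
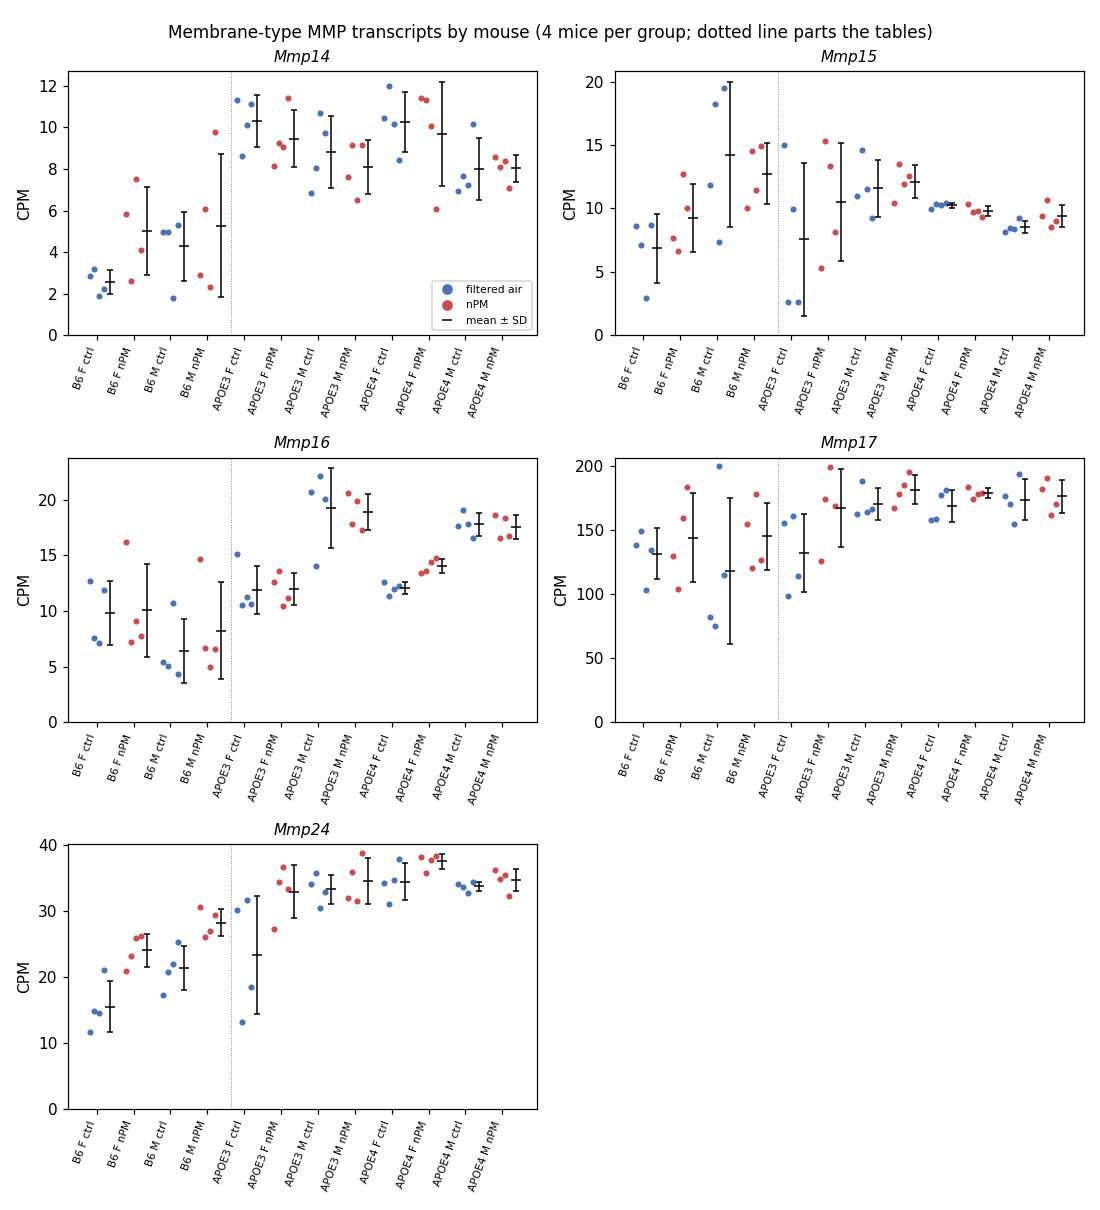
CPM (linear axes from 0) of the 5 MT-MMP genes in each of 48 mice by group, F female and M male, with filtered-air controls (ctrl) in blue, nPM in red and the mean ± SD of 4 mice in black. Exposure groups without overlap are those of *Mmp24* in B6 males (17.3 to 25.3 against 26.1 to 30.6 CPM) and *Mmp16* in *APOE*4 females, and the low points of *APOE*3 female controls are mice 61 and 6.

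With nPM, *Mmp24* was the member called over all mice, and the mean of *Mmp24* was higher with nPM in 6 of 6 sex and genotype groups. In B6 females the 4 controls had 11.7, 14.9, 14.6 and 21.0 CPM of *Mmp24* and the 4 nPM mice 20.9, 23.2, 26 and 26.3 CPM, with means of 15.5 ± 3.92 and 24.1 ± 2.53 CPM (SD, n = 4). The highest control lay just above the lowest nPM mouse. In B6 males the controls had 17.3, 20.7, 22.0 and 25.3 CPM and the nPM mice 30.6, 26.1, 27 and 29.4 CPM. These groups did not overlap, with every nPM mouse above every control, as was so for 1.24% of 15402 genes. The log2 changes of *Mmp24* were 0.69 (standard error 0.223) in B6 females and 0.39 (standard error 0.210) in B6 males.

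In *APOE*3 females the controls 52, 61, 63 and 6 had 30.1, 13.2, 31.7 and 18.4 CPM of *Mmp24*, and the nPM mice had 27.3, 34.4, 36.7 and 33.3 CPM. The low controls were the animals with the steep length slopes, and controls 52 and 63 lay within the range of the nPM mice. The log2 change of *Mmp24* there was 0.63 (standard error 0.295), and 0.11 without controls 61 and 6. In *APOE*3 males the controls averaged 33.3 ± 2.20 CPM and the nPM mice 34.6 ± 3.45 CPM of *Mmp24* (SD, n = 4 each), with overlapping groups and a log2 change of 0.06. In *APOE*4 females it was 34.5 ± 2.80 and 37.6 ± 1.19 CPM, a log2 change of 0.13 (standard error 0.067), and the highest control, 37.9 CPM, lay within the nPM range of 35.8 to 38.4 CPM. In *APOE*4 males it was 33.8 ± 0.723 and 34.7 ± 1.70 CPM, a log2 change of 0.04. So the changes of over 0.3 in log2 were those of both B6 groups and of the *APOE*3 females, the last with the 2 controls included. The antisense neighbour *BC029722* had 63.1, 97.8, 68.1 and 74.6 CPM in the *APOE*3 female controls, in the same order of mice, so it was highest where *Mmp24* was lowest.

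Over all mice, nPM passed the study's threshold (unadjusted p under 0.005) in 165 of 11078 genes (1.49%), and 0.812% of genes passed it with a higher level. Among the 8 members fitted, *Mmp24* was called and 7 were not. Because the value of *Mmp24* chose the set, this count is given without a reading. Without *APOE*3 female controls 61 and 6 the log2 change of *Mmp24* was 0.23 (standard error 0.0659), and without any 1 mouse it lay between 0.26 and 0.32. The same exclusion lowered the number of called genes from 165 to 38.

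The nPM values of the other MT-MMPs were smaller or differed in sign between groups. *Mmp17* was higher with nPM in 6 of 6 groups, with log2 changes from 0.03 in *APOE*4 males to 0.41 (standard error 0.224) in *APOE*3 females and a change of 0.17 (standard error 0.077) over all mice. Its *APOE*3 female controls 52, 61, 63 and 6 had 155, 98.4, 161 and 114 CPM and the nPM mice 126, 174, 199 and 168 CPM, and without controls 61 and 6 the change there was 0.08. *Mmp15* had a log2 change of 0.20 (standard error 0.147) over all mice, with 4 groups higher and 2 lower. In *APOE*3 females the controls had 15.0, 2.64, 9.93 and 2.65 CPM of *Mmp15* and the nPM mice 5.28, 15.3, 13.4 and 8.12 CPM. These groups overlapped, and the controls spanned nearly the whole range of the gene in *APOE*-TR mice (2.64 to 15.3 CPM). The change there turned from 0.75 (standard error 0.596) to −0.29 without controls 61 and 6.

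*Mmp14*, the activator of *Mmp2*, had a log2 change of 0.11 (standard error 0.127) over all mice, with 3 groups higher and 3 lower. Its largest change was in B6 females, where controls had 2.87, 3.17, 1.91 and 2.23 CPM and nPM mice 5.84, 2.63, 7.53 and 4.10 CPM, a log2 change of 0.83 (standard error 0.368). All of these nPM mice but one lay above every control. *Mmp16*, known mainly from brain, had a log2 change of 0.08 (standard error 0.115) over all mice. The *APOE*4 female controls had 12.6, 11.3, 12 and 12.2 CPM and the nPM mice of that group 13.5, 13.6, 14.4 and 14.8 CPM, so every nPM mouse lay above every control, as in 1.44% of 16539 genes there. The median nPM change of the 5 MT-MMPs was 0.17, where that of all genes was −0.0064. *Mmp24*, whose value chose the set, is among the 5, so this median is given without a reading.

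**Figure D2:**
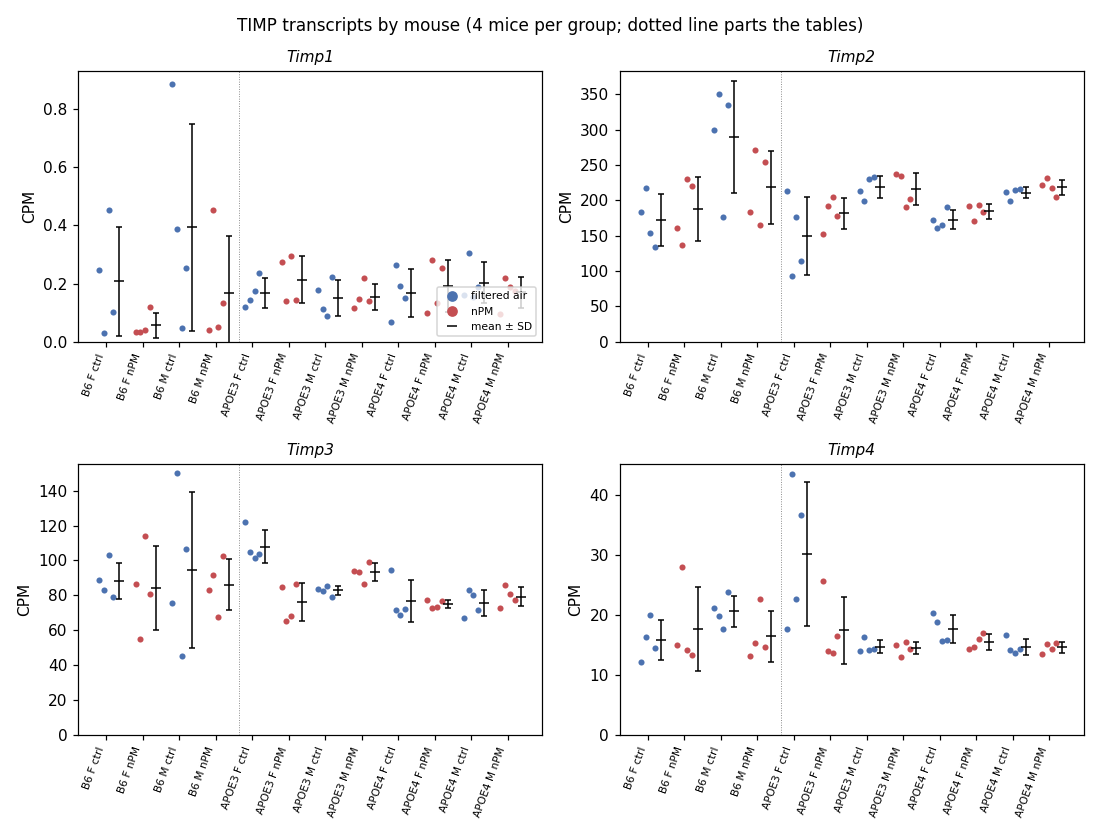
CPM (linear axes from 0) of the 4 TIMP genes in each of 48 mice, drawn as for the MT-MMPs. *Timp3* of *APOE*3 mice separates by exposure in opposite directions in the sexes, and *Timp4* is highest in *APOE*3 female controls 61 and 6 (43.6 and 36.7 CPM).

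None of the TIMPs was called for nPM over all mice, and their log2 changes were 0.03 (standard error 0.082) for *Timp2*, −0.07 (standard error 0.081) for *Timp3* and −0.20 (standard error 0.101) for *Timp4*. *Timp3*, the matrix-bound inhibitor, was the TIMP whose groups separated. In *APOE*3 females the controls 52, 61, 63 and 6 had 122, 105, 102 and 103 CPM and the nPM mice 84.9, 65.3, 67.9 and 86.3 CPM, with means of 108 ± 9.42 and 76.1 ± 11 CPM (SD, n = 4). Every nPM mouse lay below every control, as in 3.85% of 16371 genes there. Unlike *Mmp24*, *Timp3* was not set apart in controls 61 and 6, and its log2 change was −0.45 (standard error 0.132) with them and −0.53 without.

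In *APOE*3 males *Timp3* went the other way. Controls had 83.8, 82.7, 85.6 and 79.1 CPM and nPM mice 93.9, 93.2, 86.8 and 99.1 CPM, a log2 change of 0.18 (standard error 0.0529). Every nPM mouse lay above every control, as in 0.788% of 16876 genes there. In *APOE*4 mice the groups overlapped, with 68.8 to 94.5 CPM in female controls against 73 to 77.5 CPM with nPM, and 67.2 to 83.3 against 73 to 86.2 CPM in males. B6 mice ranged from 45.1 to 150 CPM, with log2 changes of −0.06 in females and −0.03 in males.

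*Timp4* was lower with nPM in 5 of 6 groups. In males of the *APOE*-TR table its log2 change was near 0, at −0.018 (standard error 0.0758) in *APOE*3 and −0.0005 (standard error 0.0773) in *APOE*4. The *APOE*4 male value of *Timp4* changed sign with no filter on low values. In *APOE*3 females its controls 52, 61, 63 and 6 had 17.7, 43.6, 22.7 and 36.7 CPM and its nPM mice 25.7, 13.9, 13.7 and 16.5 CPM. The other 24 *APOE*-TR mice lay between 13.1 and 20.4 CPM, so controls 61 and 6 were far above every other mouse. Without them the log2 change of *Timp4* moved from −0.67 to −0.22 in *APOE*3 females and from −0.20 to −0.10 over all mice. *Timp2* had 213, 92.6, 177 and 114 CPM in these controls, in the same order, and 153 to 205 CPM in the nPM mice. Its log2 change in *APOE*3 females was 0.42 (standard error 0.280) and −0.08 without controls 61 and 6. *Timp1* had log2 changes of −0.07 to 0.11 in the 4 *APOE*-TR groups, at 9 reads or fewer per mouse.

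**Figure D3:**
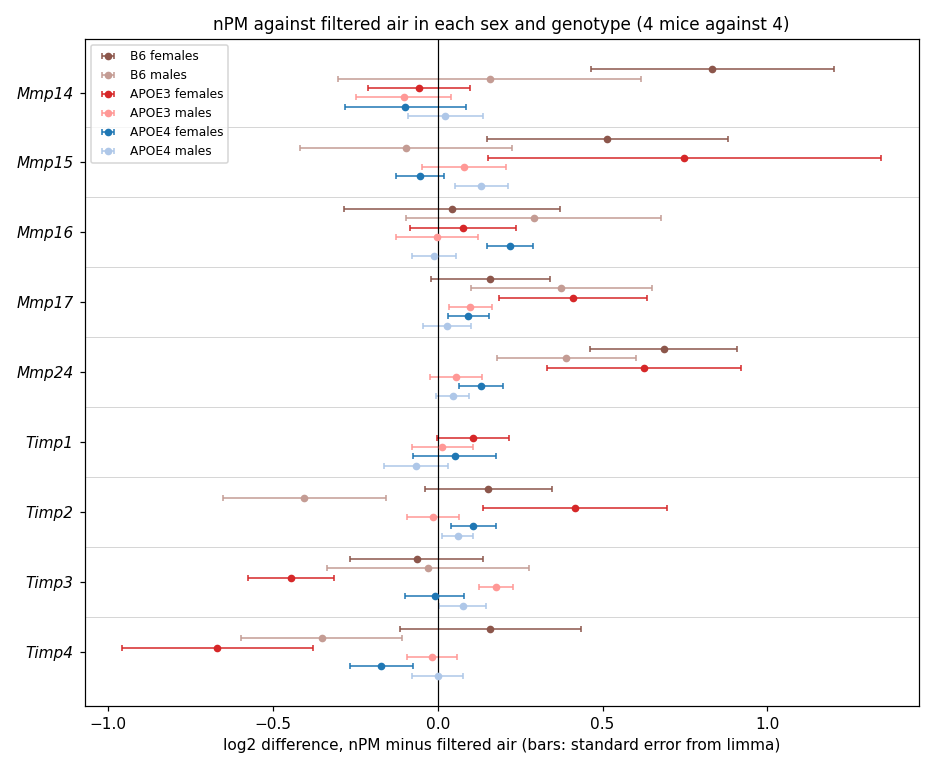
Log2 change with nPM (x axis) of each member (y axis) in the 6 sex and genotype groups, each with 4 control and 4 nPM mice. Points are limma estimates and bars are ± 1 standard error. *Mmp24* and *Mmp17* lie right of 0 in all 6 groups. *Timp4* lies left of 0 in 5, with the points of *APOE*3 and *APOE*4 males within 1 standard error of 0.

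In the 6 stratified fits no member had an unadjusted p under 0.005. Over all genes tested, that threshold was passed in females by 1.18% (B6), 0.678% (*APOE*3) and 0.26% (*APOE*4), and in males by 0.24% (B6), 0.154% (*APOE*3) and 0.178% (*APOE*4). The differences between nPM responses were tested as contrasts of group means. Between sexes, over all 48 mice, the response of *Mmp24* was higher in females by 0.30 in log2 (standard error 0.134, adjusted p = 0.326 from limma) and that of *Timp2* by 0.33 (standard error 0.155, adjusted p = 0.353), while that of *Timp3* was lower, with a difference in log2 of −0.27 (standard error 0.158, adjusted p = 0.444). Between alleles, over the 32 *APOE*-TR mice, the log2 difference of the response (*APOE*4 against *APOE*3) was −0.25 for *Mmp24* (adjusted p = 0.467), 0.17 for *Timp3* (adjusted p = 0.443) and 0.26 for *Timp4* (adjusted p = 0.463). Without *APOE*3 female controls 61 and 6 the sex differences were 0.14 for *Mmp24*, 0.18 for *Timp2* and −0.28 for *Timp3*, and the allele differences were 0.016 for *Mmp24*, 0.22 for *Timp3* and 0.042 for *Timp4*. By limma, 0 members and 0% of all genes passed 5% FDR in either test, with 1527 of 11078 genes (sex) and 1685 of 15951 genes (allele) at an unadjusted p under 0.05. In edgeR the count for the allele was also 0.

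**Figure D4:**
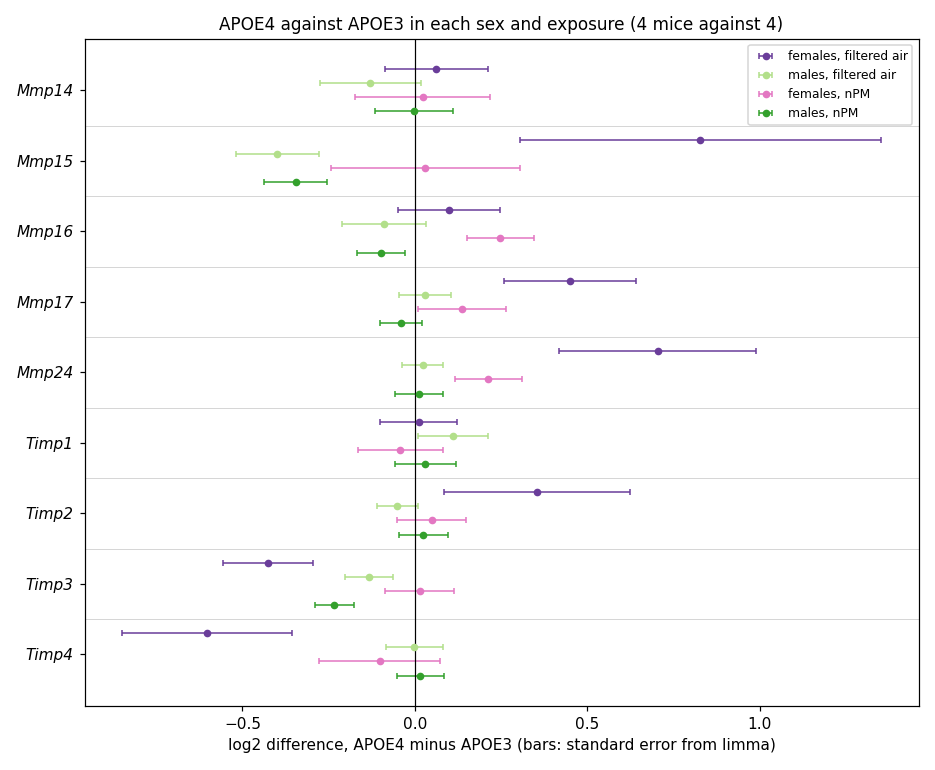
Log2 difference of *APOE*4 against *APOE*3 (x axis) of each member (y axis) in 4 subsets by sex and exposure, with 4 mice per allele in each. Points are limma estimates and bars are ± 1 standard error. The points farthest from 0 are *Mmp15*, *Mmp24* and *Timp4* in females under filtered air, which include *APOE*3 controls 61 and 6.

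Between alleles, no member differed at 5% FDR over all mice, where 41 of 11078 genes (0.37%) did. *Mmp24* was 0.21 higher in log2 in *APOE*4 (standard error 0.0959, adjusted p = 0.312 from limma), and *Timp3* had a difference in log2 of −0.22 (standard error 0.0991, adjusted p = 0.312). The others lay between −0.20 for *Timp4* and 0.12 for *Mmp17* (adjusted p of 0.440 and 0.537). The sign of the *Mmp24* difference was positive in each of the 4 subsets by sex and exposure, from 0.012 in nPM males to 0.70 in control females, though the values in both male subsets changed sign without single mice. In control males it was 0.022. These all-mouse values include *APOE*3 female controls 61 and 6. The control female differences of *Mmp24*, *Timp3* and *Timp4* are given below with and without them.

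Among control females 0 members and 0.232% of all genes were called. The log2 differences were 0.83 for *Mmp15* (standard error 0.522, adjusted p = 0.251 from limma), 0.70 for *Mmp24* (adjusted p = 0.103), −0.60 for *Timp4* (adjusted p = 0.104) and −0.43 for *Timp3* (standard error 0.13, adjusted p = 0.0765). Without *APOE*3 controls 61 and 6 the difference was −0.22 for *Mmp15* (adjusted p = 0.386), 0.18 for *Mmp24* (adjusted p = 0.296), −0.16 for *Timp4* (adjusted p = 0.524) and −0.52 for *Timp3* (adjusted p = 0.0703). Single controls moved calls in this subset. Without *APOE*3 control 52, 6394 genes passed 5% FDR, where 38 of 16396 genes did with all mice. Among the 6394 were *Mmp15* at 1.27 (adjusted p = 0.0452 from limma) and *Timp4* at −0.81 (adjusted p = 0.0253). Without control 63 *Mmp24* passed at 0.89 (adjusted p = 0.0444), and the share of all genes called there is not given. Both refits kept controls 61 and 6, and nothing is read from these calls. The 4 *APOE*4 mice had 94.5, 71.7, 68.8 and 71.9 CPM of *Timp3*, all below the *APOE*3 controls, as in 16.5% of all genes there, so that separation was common.

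Among control males 0 members were called against 0.439% of all genes. *Mmp15* had 11, 14.6, 11.5 and 9.21 CPM in *APOE*3 controls and 8.17, 8.45, 8.36 and 9.21 CPM in *APOE*4 controls, which differed by −0.40 on the log2 scale (standard error 0.119, limma adjusted p = 0.405). The groups came close at 9.21 CPM without overlapping, which was so in this direction for 2.1% of genes. Among nPM females 0 members were called against 0.146% of all genes, and the largest member differences were 0.25 for *Mmp16* and 0.21 for *Mmp24* (adjusted p = 0.530 each). Among nPM males 0 members were called against 0.511% of all genes. *Timp3* was 93.9, 93.2, 86.8 and 99.1 CPM in the *APOE*3 mice and 73, 86.2, 80.5 and 77.1 CPM in the *APOE*4 mice, a difference in log2 of −0.23 (standard error 0.0571, adjusted p = 0.156), without overlap, as in 3.06% of genes. *Mmp15* was again lower in *APOE*4 by this measure, with a difference in log2 of −0.35 (standard error 0.0916, adjusted p = 0.208), but the groups overlapped.

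Of the tested contrasts over all mice, sex had calls among the members. *Timp2*, *Mmp15* and *Mmp24* were lower in females at 5% FDR, 3 of 8 members, where 36.3% of all genes were called in either direction and 18.4% were called lower in females. *Timp2* ranged from 92.6 to 213 CPM in *APOE*-TR females (median 177, n = 16) and from 191 to 237 CPM in males (median 216, n = 16). In B6 mice *Timp2* ranged from 134 to 230 CPM in females (median 173, n = 8) and from 166 to 351 CPM in males (median 263, n = 8). The ranges overlapped in both tables, and females differed from males by −0.40 in log2 (standard error 0.0823, limma adjusted p = 0.000238). *Timp2* was called in each alternative tried, among them *APOE*-TR mice alone and B6 mice alone.

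For *Mmp15* the log2 difference of females against males was −0.41 (standard error 0.147, adjusted p = 0.0273 from limma) and for *Mmp24* −0.21 (standard error 0.0783, adjusted p = 0.0309). Both calls were lost in several alternatives. Neither gene passed without *APOE*3 female controls 61 and 6 (log2 differences of −0.27 and −0.14, adjusted p of 0.102 each), without either of these controls alone, or in *APOE*-TR mice alone (adjusted p of 0.285 and 0.243), and *Mmp24* did not pass without B6 female control 40 (adjusted p = 0.0534). With all mice kept, the calls were also lost with the length slope as a covariate (log2 differences of −0.24 and −0.14, adjusted p of 0.204 and 0.175) and with voom and ComBat (adjusted p of 0.0521 and 0.064), and that of *Mmp24* with no filter on low values (adjusted p = 0.072). Within the *APOE*-TR table *Mmp16* was the member that separated the sexes most, at 10.4 to 15.1 CPM in females and 14.0 to 22.1 CPM in males, with a difference in log2 of −0.54, and it was called. *Mmp14* (0.25, adjusted p = 0.00788) and *Timp4* (0.37, adjusted p = 0.00289) were higher in females there, where 9296 of 15395 genes were called. In B6 mice *Mmp16* differed by 0.42 in the other direction (adjusted p = 0.246). The read depths of *APOE*-TR females and males did not overlap. Neither did their length slopes, −0.547 to 0.0295 in females and 0.0563 to 0.154 in males. Sex, depth and length slope thus cannot be told apart in that table. Endothelial markers moved with sex too, with 6 of 7 lower in females over all mice (median log2 difference −0.71) and sums of 33.1 to 63.9 CPM in *APOE*-TR females against 80.0 to 136 CPM in males. In B6 mice the endothelial sums were 78.2 to 115 CPM in females and 66.3 to 91.9 CPM in males. Of 7 astrocyte markers 4 were higher in females (median log2 difference 0.31), with sums of 3157 to 4232 CPM in *APOE*-TR females and 3104 to 3847 CPM in males, and 2428 to 3683 against 1162 to 2981 CPM in B6 mice. Of 5 mural markers tested 3 were lower in females (median −0.42), with sums of 62.0 to 125 CPM in *APOE*-TR females and 85.9 to 128 CPM in males, and 93.9 to 169 against 73.9 to 115 CPM in B6 mice. Neuronal markers had 2 of 7 higher and microglial markers 1 of 7. Neuronal sums were 4515 to 7167 CPM in *APOE*-TR females and 4920 to 5959 CPM in males. In B6 mice the neuronal sums were 4336 to 6699 CPM in females and 2128 to 4782 CPM in males. The part of these cell types in the result was not tested.

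Proteins that act with the MT-MMPs were described from lists of convertases, other proteases, substrates and host genes. Their counts for sex stand against 36.3% of all genes called, 18.4% lower in females, and nothing is called particular to a list. For nPM no other gene of these lists was called over all mice, and for the allele none was. Of 16 other MMPs, the secreted *Mmp28* was the one with reads in every mouse, with a log2 change of 0.30 with nPM (standard error 0.125). Of 12 activators and membrane regulators 7 were tested, and the convertases *Furin* (−0.35, adjusted p = 0.0389 from limma) and *Pcsk5* (−0.43, adjusted p = 0.00382) were lower in females. Among 5 of 8 ADAM sheddases tested *Adam15* was lower in females (−0.63, adjusted p = 0.000140), and among 6 of 8 ADAMTS proteases *Adamts2*, which trims procollagen, was lower (−0.49, adjusted p = 0.00386).

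Of 12 substrates and matrix partners 11 were tested. In females 5 were lower, *Lrp1* (−0.59), a receptor for *APOE* particles, *Dag1* (−0.33), *Agrn* (−0.35), the proteoglycan *Acan* (−0.28) and *Tnr* (−0.51), and the link protein *Hapln1* was higher (0.60, adjusted p = 0.000176 from limma). *Cdh2*, which encodes N-cadherin, had log2 changes of 0.02 with nPM, 0.0019 by allele and −0.12 by sex and was not called. The median nPM change of the substrates was 0.13 and their median allele difference 0.18, against −0.0064 and −0.012 over all genes. Both medians include *APOE*3 female controls 61 and 6 and were not taken without them. The part of these mice in the medians was not tested. Of the 3 host synapsins, *Syn3* was lower in females (−0.49, adjusted p = 0.00262).

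Levels of the synapsins that hold TIMP genes were set beside those of the TIMPs. In *APOE*3 female controls 52, 61, 63 and 6, *Syn1* had 219, 28.1, 243 and 47.0 CPM and *Syn3* had 28.1, 9.61, 26.6 and 13.3 CPM, both lowest in controls 61 and 6. *Timp3*, inside *Syn3*, had between 102 and 122 CPM in the same mice. *Syn2*, which holds *Timp4*, had 362, 350, 394 and 369 CPM there, while *Timp4* was 17.7, 43.6, 22.7 and 36.7 CPM.

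**Figure D5:**
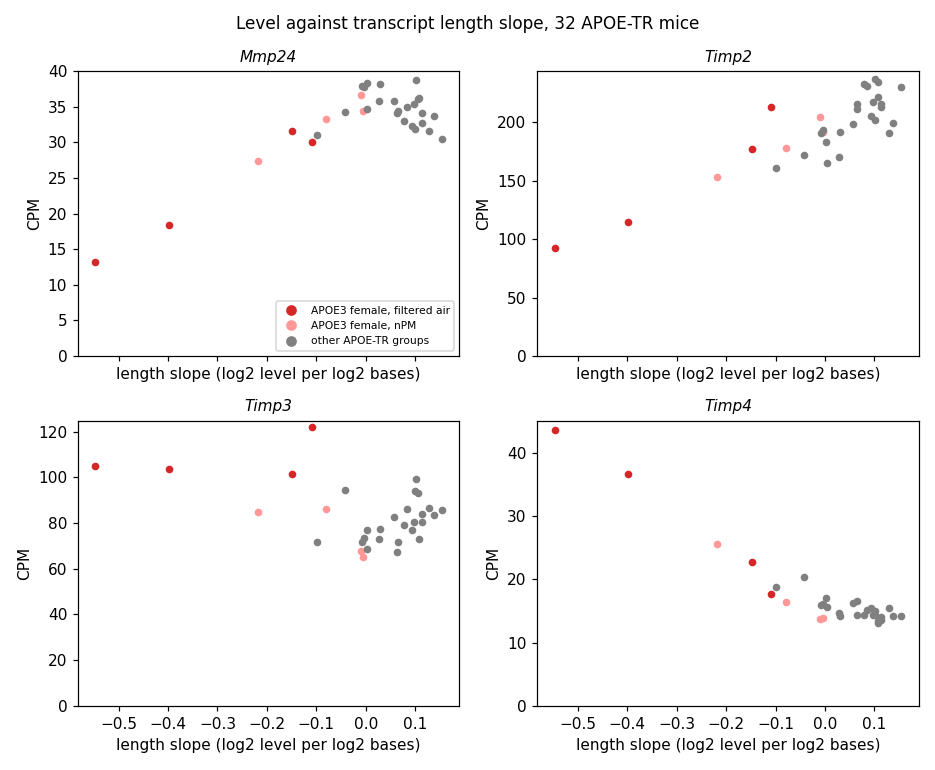
CPM (linear y axes from 0) of *Mmp24*, *Timp2*, *Timp3* and *Timp4* against the length slope of each of the 32 *APOE*-TR mice (x axis, change of log2 level per log2 of transcript bases). *APOE*3 female controls are red, *APOE*3 female nPM mice pink and the other groups grey. Controls 61 and 6, at slopes of −0.547 and −0.398, are low in *Mmp24* and *Timp2*, high in *Timp4* and within the range of their group in *Timp3*.

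Several members followed the length slope across the 32 *APOE*-TR mice. Pearson's r of log2 level with the slope was −0.94 for *Timp4*, 0.92 for *Timp2*, 0.84 for *Mmp17* and 0.83 for *Mmp24*. Without the 4 *APOE*3 female controls these were −0.79, 0.81, 0.43 and 0.22 over 28 mice, so the relation of *Mmp24* and *Mmp17* rested largely on that group. *Mmp16* had 0.80 and, over 28 mice, 0.83, the highest there, and *Mmp15* had 0.75 and 0.37. Over the 32 mice *Timp3* (−0.30, and 0.24 over 28) and *Mmp14* (−0.23, and −0.34 over 28) had the r nearest 0. The mice share a table, and depth and length slope both separate the sexes there, so these r are descriptions. The part of the slope in the nPM and allele values was not tested beyond the values given without controls 61 and 6 and with a covariate for the slope, under which the log2 change of *Mmp24* with nPM over all mice was 0.27 and that of *Timp4* −0.092.

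Genes most like each member were sought by Pearson's r of log2 level over the 32 *APOE*-TR mice among the genes of the fit of all mice. *Mmp24* was closest to *Elfn2* (r = 0.98, and 0.84 over 28 mice without the *APOE*3 female controls) and *Capn15* (0.98 and 0.83). *Mmp17* was closest to *Gse1* (0.96 and 0.87) and *Syvn1* (0.96 and 0.86), and *Mmp15* to *Csdc2* (0.90 and 0.59) and *Ccdc97* (0.90 and 0.66). Without the 4 mice the r of the genes closest to *Mmp15* were the lowest of these 3 members. *Mmp16* was closest to *Lnpep* (0.96 and 0.95) and *Lmbrd2* (0.95 and 0.94), and *Mmp14*, lowest over the 32 mice, to *Wnt7a* (0.70 and 0.78) and *Gpatch4* (0.69 and 0.70). For the TIMPs the closest genes were *Atp2b4* (0.96 and 0.93) and *Grin3a* (0.96 and 0.87) with *Timp2*, *S1pr1* (0.87 and 0.82) and *Pdlim5* (0.84 and 0.77) with *Timp3*, and *Cox7b* (0.97 and 0.88) and *Ndufa5* (0.97 and 0.88) with *Timp4*. Among the members themselves, *Mmp17* and *Mmp24* had r = 0.93 over 32 mice, 0.76 over 28 and 0.25 over the 16 B6 mice. *Timp2* and *Timp4* had −0.91, −0.73 and 0.09, so neither pairing in the *APOE*-TR mice was of like size in B6 mice.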

How the data were processed

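Cortex RNA of 48 mice was read from tables of 32 *APOE*-TR and 16 B6 mice. Per the labels, the authors made TruSeq stranded mRNA libraries. Reads were mapped to RefSeq mm10 (GRCm38) by TopHat2 2.0.8b within Partek, keeping reads with 1 mapping position, per the study's methods and the submitters' processing notes. The deposited values are CPM made by the authors, whose sums were 525096 to 877652 per mouse. Low *APOE*-TR values were whole multiples of 1 step, within 0.1 of a step, for 95.3% to 96.3% of them, so reads were recovered, and the values of B6 mice (75.5% to 89.1%) gave estimates. Duplicated or altered symbols (26 and 24 listings) were left out. One column, *APOE*3 female control 6, matches no sample's animal number and was used by its group.

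After TMM scaling in edgeR 4.0.16, 0.5 CPM was added and log2 taken. limma 3.58.1 (R 4.3.3, with a variance trend) tested genes that had reads in all mice of the fit, and p-values were adjusted over these genes by Benjamini-Hochberg. nPM calls used an unadjusted p under 0.005 and other calls 5% FDR. The fit of all mice had terms for sex, genotype and nPM, so genotype also took up the separate exposures, and fits of 1 stratum had 8 mice. Groups came from the labels, and SDs are between mice. The members and gene lists were chosen with earlier results of these data known. Genes named outside the set are host synapsins, overlapping genes, list genes called in a tested contrast or, where none was, the most abundant tested gene of the list, and the 2 genes most correlated with each member. *Cdh2* falls outside this rule and was picked after its values were seen. The procedure was tested on simulated data. Alternatives were no TMM or median-ratio size factors, 0.1 or 2 CPM added, no filter or at least 10 reads, edgeR on recovered reads, voom with ComBat (sva 3.50.0), subsets of mice, a covariate for length slope and each mouse left out.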

Additional observations from a re-analysis of the deposited data

Results flagged for a closer look

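Of 108 sets of 4 mice, each for 1 member in 1 group, 9 held a value set apart from the rest by Dixon's test. By chance about 1 in 20 sets would hold such a value. In B6 male control mouse 3, *Mmp14* was low (1.80 CPM, against 4.98 to 5.32 in the other controls) and *Mmp16* high (10.7 against 4.37 to 5.41). In *APOE*3 female control 52, *Mmp16* (15.1 against 10.6 to 11.3) and *Timp3* (122 against 102 to 105) were high. In *APOE*3 male control 55, *Mmp17* (188 against 162 to 166) and *Timp4* (16.3 against 14.1 to 14.3) were high. *Timp3* was high in *APOE*4 female control 7 (94.5 against 68.8 to 71.9) and *Timp4* in B6 female nPM mouse 51 (28.1 against 13.4 to 15.1). These 8 values rest on reads. The last is no difference in expression, since *Timp1* had an estimated 0 reads in all 4 B6 female nPM mice, and the value listed for a gene without reads was 0.120 CPM in mouse 53, at 4.78 M reads, and 0.033 to 0.0388 CPM in the others, at 15.2 to 16.4 M.

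The nPM change of *Timp3* was −0.45 in *APOE*3 females and 0.18 in *APOE*3 males (log2), with every nPM mouse below every control in females and above every control in males. The difference between these 2 groups alone was not tested, and over all 48 mice the sex difference of the *Timp3* response had an adjusted p of 0.444 from limma.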

How the results depend on the processing

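B6 reads are estimates, down to 2.04 M in a mouse, and *Timp1* rests on at most 20 reads, so no change of it was detectable at this depth. Group means rest on 4 mice. Nothing in the labels states separate cultures or cages, so p-values measure the spread between these mice. *APOE*3 female controls 61 and 6 decided several values, given above with and without them. No paired analysis was possible because the groups compared share fewer than 2 animal numbers. The edgeR alternative was run for fits of *APOE*-TR mice alone, since reads of B6 mice were not recovered as whole numbers. The values without controls 61 and 6 were chosen after the data were seen. Where a cause is not given, the cause was not tested.

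Genes called for nPM over all mice (165) numbered 108 in *APOE*-TR mice alone, 34 without *APOE*3 females, 59 in B6 mice alone, 395 in females, 7 in males, 38 without controls 61 and 6, and 81 to 248 without 1 mouse at a time. The stratified counts without 1 mouse were 75 to 318 in B6 females, 13 to 281 in B6 males, 29 to 296 in *APOE*3 females, 12 to 74 in *APOE*3 males, 15 to 89 in *APOE*4 females and 15 to 88 in *APOE*4 males, which had 48 with no filter. Allele genes over all mice (41) numbered 907 in *APOE*-TR mice alone, 27 with at least 10 reads, 21 without *APOE*3 females, 25 in males and 305 with voom, ComBat and an unweighted fit. Allele genes in control females (38) numbered 21 with at least 10 reads, 309 without controls 61 and 6 and 15 to 6394 without 1 mouse. In control males (74) they were 41 to 59 and in nPM males (86) 53 to 104 without 1 mouse, and in nPM females (24) 14 with at least 10 reads. Sex genes (4020) numbered 9296 in *APOE*-TR mice alone, 2553 without *APOE*3 females and 6408 with voom and ComBat. The tests of the difference in response gave 0 to 52 genes between sexes and 0 to 1 between alleles without 1 mouse.

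Of the member values under these alternatives, 976 kept their direction and side of the threshold (or, for nPM, moved by less than the spread between mice), and 52 changed sign, in comparisons of allele, sex or response difference that were not called. The nPM values, which have no test, changed sign in 12 more cases, 10 of them within the spread between mice and the others *Mmp15* and *Timp2* in *APOE*3 females without controls 61 and 6 (−0.29 and −0.08). The log2 values of the 52 are given by setting. Without TMM they were −0.0064 for *Mmp14* and −0.0070 for *Timp1* (allele in control females) and −0.0049 for *Timp3* (allele in nPM females). With median-ratio size factors they were 0.00052 for *Timp4* (allele in control males) and 0.0089 for *Mmp16* (sex difference of the response). With 2 CPM added they were −0.022 for *Mmp15* (allele over all mice) and 6.9e-05 for *Mmp16* (sex difference of the response). With no filter on low values they were 0.00036 for *Timp4* (allele in control males), 0.0016 for *Mmp14* (allele in nPM males), 0.0074 for *Timp3* (sex) and 0.041 for *Mmp16* (sex difference of the response). With at least 10 reads in every mouse they were 0.00048 for *Mmp14* (allele in nPM males) and 0.015 for *Mmp16* (sex difference of the response). In edgeR they were −0.082 for *Mmp15* (allele in nPM females). Without *APOE*3 females they were 0.077 for *Mmp14*, −0.14 for *Mmp15*, −0.32 for *Mmp16*, −0.034 for *Mmp17* and 0.093 for *Timp4* (allele over all mice) and −0.0077 for *Mmp14*, 0.016 for *Mmp16*, 0.041 for *Mmp17* and −0.011 for *Timp4* (sex). With the length slope as a covariate they were 0.0023 for *Mmp14*, −0.13 for *Mmp15*, −0.089 for *Mmp16* and −0.0037 for *Timp2* (allele over all mice) and 0.027 for *Mmp17* and −0.025 for *Timp4* (sex). In females alone they were 0.026 for *Mmp14* (allele over all mice). In males alone they were −0.37 for *Mmp15*, −0.10 for *Mmp16*, −0.010 for *Mmp17*, −0.017 for *Timp2* and 0.0031 for *Timp4* (allele over all mice). Without controls 61 and 6 they were −0.21 for *Mmp15*, −0.036 for *Mmp16* and −0.031 for *Timp2* (allele over all mice), −0.046 for *Mmp14*, −0.22 for *Mmp15*, −0.091 for *Mmp16* and −0.15 for *Timp2* (allele in control females), −0.061 for *Mmp17* and 0.043 for *Timp4* (sex difference of the response) and 0.15 for *Mmp15*, 0.016 for *Mmp24* and 0.14 for *Timp2* (allele difference of the response). In *APOE*-TR mice alone they were 0.0028 for *Timp3* (sex). In B6 mice alone they were −0.32 for *Mmp14*, 0.42 for *Mmp16*, 0.055 for *Mmp17* and −0.22 for *Timp4* (sex). Without 1 mouse at a time, values that changed sign covered these ranges, *Mmp14* −0.068 to 0.0063, *Mmp15* −0.089 to 0.069, *Mmp16* −0.015 to 0.050 (allele over all mice), *Timp3* −0.054 to 0.027 (sex), *Mmp14* −0.040 to 0.15, *Timp1* −0.055 to 0.089 (allele in control females), *Mmp17* −0.022 to 0.088, *Mmp24* −0.021 to 0.057, *Timp4* −0.064 to 0.046 (allele in control males), *Mmp14* −0.069 to 0.23, *Mmp15* −0.25 to 0.23, *Timp1* −0.11 to 0.024, *Timp2* −0.037 to 0.11, *Timp3* −0.061 to 0.081, *Timp4* −0.20 to 0.089 (allele in nPM females), *Mmp14* −0.10 to 0.058, *Mmp24* −0.031 to 0.067, *Timp1* −0.0051 to 0.084, *Timp2* −0.034 to 0.069, *Timp4* −0.029 to 0.052 (allele in nPM males), *Mmp16* −0.088 to 0.10, *Mmp17* −0.062 to 0.094 (sex difference of the response), *Mmp14* −0.00091 to 0.15, *Timp2* −0.22 to 0.0079 (allele difference of the response). The nPM change of *Timp1* in edgeR was 0.50 in *APOE*3 females and −0.27 in *APOE*4 males. For sex, 12 member calls were lost (*Mmp15* or *Mmp24*) and 4 gained (*Mmp14*, *Mmp16* or *Timp4*). The all-mouse nPM change of *Mmp24*, which chose the set, was positive in each alternative (0.16 in males to 0.53 in B6 mice alone). This range is a description and is given without a reading. The nPM change of *Timp3* was 0.018 without *APOE*3 females and 0.065 in males.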
